A study of Mus musculus with 10 samples.

Results

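The homologues of human chromosome 21 (Hsa21) lie in the mouse on 3 chromosomes, and the Ts65Dn mouse, a model of Down syndrome, carries only some of them in 3 copies. The genes described here are 54 Hsa21 homologues that stay in 2 copies in Ts65Dn mice. They were chosen by gene symbol from 3 regions, which are chromosome 10 with 29 genes, chromosome 17 with 16 and the proximal part of the Hsa21-homologous stretch of chromosome 16 with 9. Of the 54, 53 had a transcript cluster (the set of probes that the array summarises into 1 value, called a row below) carrying their symbol alone, out of 19938 genes measured in this way. Btg3 was the exception, and its rows are described apart. Where a gene had more than 1 row, as Slc19a1 and U2af1 did, the row with the highest mean was used.

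Down syndrome results from an extra copy of chromosome 21, and the RNA of a gene in 3 copies is often raised roughly with its copy number. In a mouse that carries only part of the homologous genes, those left in 2 copies show whether expression also moves where the gene dose does not. They form no single pathway. Among them are enzymes of RNA editing and sterol synthesis, ubiquitin and SUMO pathway proteins, collagens, leukocyte receptors and the astrocyte protein S100b.

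Hippocampal RNA came from 5 Ts65Dn and 5 control male mice, all aged 16 weeks. The Ts65Dn mice carried a small extra chromosome that joins a part of chromosome 16 to the centromeric end of chromosome 17, and the controls were their littermates without it. Both genotypes were kept on an F1 hybrid B6C3B background, in which the C3B parent is a C3H line made congenic for the BALB/c allele of Pde6b. The extra chromosome also adds a copy of chromosome 17 genes with no homology to Hsa21, so Ts65Dn is not a trisomy of Hsa21 homologues alone. The left and right hippocampus of a mouse gave 1 RNA and 1 Affymetrix Mouse Gene 1.0 ST array.

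Over the 10 arrays the median log2 signal ranged from 7.38 to 7.41, and 23410 rows with a gene symbol were tested. All 13 measured markers of hippocampal neurons, of 14 listed, had signals above the median row. A list of 12 choroid plexus markers, a tissue of the ventricle next to the hippocampus, averaged between 6.64 and 9.12 on the log2 scale over the Ts65Dn mice and between 6.71 and 8.77 over the controls, and 0 of the 12 passed the test between genotypes. The arrays of Ts65Dn mice 2 and 4 and of control mouse 5 had a mean above 8 for this list. The main counts of homologues, and the 4 genes with the smallest unadjusted p, are given with and without these 3 arrays.

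The promoters of 42 of the 54 genes were found in the RefSeq table of the GRCm38.p6 assembly. The 250 bases before the start used in that table are shown for 4 of them. For Ubash3a and Rbm11 that start lies inside the annotated gene span given below, so the stretch partly overlaps the gene. Ncam2, Rbm11 and Ubash3a were among the 4 genes with the smallest unadjusted p, of which Sik1 had no entry in the table. S100b, a common marker of astrocytes, gives a contrast in base composition. Capitals mark CpG dinucleotides, and each sequence is read 5′ to 3′ on the plus strand.
Ncam2, chr16:81200447-81200696: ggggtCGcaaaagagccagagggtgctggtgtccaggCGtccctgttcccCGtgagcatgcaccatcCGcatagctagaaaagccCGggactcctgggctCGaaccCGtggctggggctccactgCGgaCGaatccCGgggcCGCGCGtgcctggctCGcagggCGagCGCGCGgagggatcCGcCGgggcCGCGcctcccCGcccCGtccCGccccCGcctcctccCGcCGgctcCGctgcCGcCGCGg
Rbm11, chr16:75592641-75592890: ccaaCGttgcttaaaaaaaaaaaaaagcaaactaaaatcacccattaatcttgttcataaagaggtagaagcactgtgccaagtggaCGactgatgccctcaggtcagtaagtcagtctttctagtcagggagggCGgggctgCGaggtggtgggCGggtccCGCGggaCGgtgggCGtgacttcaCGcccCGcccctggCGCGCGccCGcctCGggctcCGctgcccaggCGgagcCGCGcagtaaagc
Ubash3a, chr17:31207816-31208065: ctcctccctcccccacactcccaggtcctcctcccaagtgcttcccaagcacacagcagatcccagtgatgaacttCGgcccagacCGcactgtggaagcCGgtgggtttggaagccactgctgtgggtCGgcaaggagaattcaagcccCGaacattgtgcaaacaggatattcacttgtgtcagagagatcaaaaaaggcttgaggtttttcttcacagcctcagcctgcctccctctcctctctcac
S100b, chr10:76253586-76253835: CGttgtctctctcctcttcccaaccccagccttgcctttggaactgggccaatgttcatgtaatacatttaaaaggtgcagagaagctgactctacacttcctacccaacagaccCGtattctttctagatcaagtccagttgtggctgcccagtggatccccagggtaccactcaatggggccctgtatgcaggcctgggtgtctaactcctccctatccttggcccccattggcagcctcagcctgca

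These stretches held 32 CpG dinucleotides for Ncam2, 20 for Rbm11, 5 for Ubash3a and 2 for S100b. A promoter was called CpG-rich where the observed over expected CpG ratio was at least 0.6 and the GC content at least 50% over 300 bases, which run to 50 bases after the start. This held for 25 of the 42 promoters (59.5%), against 34.1% of all 27025 promoters in the table. The letters GGGCGG, searched on both strands, were in 57.1% of the 42 and in 35.9% of all. The median log2 fold change, Ts65Dn minus control, was -0.00 for the 25 genes with a CpG-rich promoter and -0.01 for the 16 measured genes without one.

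None of the 53 measured homologues on this list passed the test for a higher or lower level in Ts65Dn hippocampi. The list does not hold every homologue left in 2 copies. Cbs, a chromosome 17 homologue outside it, was reported by the study as lower in Ts65Dn and other models, also by quantitative PCR. In the limma fit 0 of 53 genes passed an adjusted p of 0.05 in either direction, where 0.316% of all rows did, 0.312% higher and 0.00427% lower. Ubash3a was the 1 gene at an unadjusted p under 0.05, against a background of 3.16% of rows, and the genotypes overlapped for each of the 53 genes, against 0.884% of rows in which they did not. A fold change rank method, modelled on the one in the study's methods, called 1 gene higher, Rbm11, and 1 lower, Sik1, where it called 5.36% of all rows, 2.89% higher and 2.47% lower. Its cut is placed at 0.025 on each side of the spread over all rows, so this share follows largely from the cut. In bulk tissue, fewer cells of a type and less RNA per cell cannot be told apart, so each value is one of the whole hippocampus. With the 3 arrays of high choroid plexus signal left out, a setting chosen after seeing the data, 0 genes passed the adjusted p (0.0555% of rows did) and 3 were at an unadjusted p under 0.05, Rbm11, Ncam2 and Sik1 (4.45% of rows). The genotypes then did not overlap for 5 genes, of which Rbm11, Ncam2, Ubash3a and Agpat3 were higher and Sik1 lower, against 5.11% of rows.

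The differences were small in both directions. The median log2 fold change of the 53 genes was 0.00, with 27 above 0 and 26 below, and that of all rows was -0.00. It lay under 0.1 in size for 49 genes and over 0.2 for 1, Sik1. The median standard error was 0.06, and the median SD between mice of 1 genotype was 0.09, both as over all rows. For each of the 53 genes the upper bound of the 95% interval was a fold under 1.5, the ratio of 3 to 2 copies, which was so for 99.1% of all rows. It was also so for 124 of 158 genes in 3 copies, and for 48 of the 76 of these at or above the median signal. This bound therefore does not by itself tell 2 copies from 3. The interval lay between 0.8 and 1.25 for 50 of 53 genes, against 93.0% of all rows, and the exceptions were Rbm11, Sik1 and Rsph1. The highest upper bound was 1.29, for Rbm11, and the lowest lower bound was 0.696, for Sik1.

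**Figure D1:**
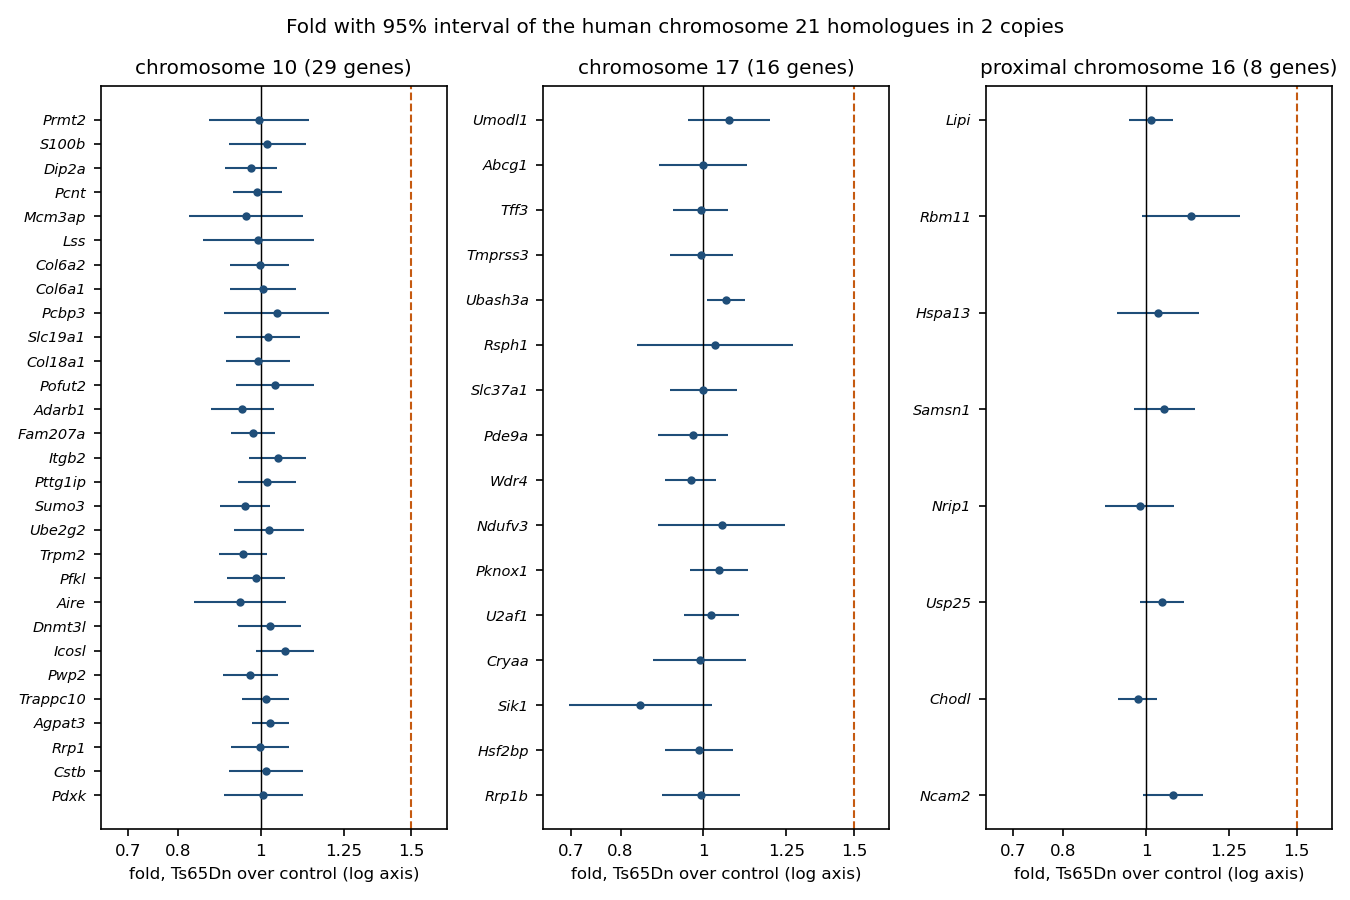
Fold of Ts65Dn over control (horizontal, log axis) with its 95% interval for each of the 53 measured homologues in 2 copies, in gene order along each chromosome, with lines at 1 (solid) and 1.5 (dashed). No interval reaches 1.5, and the widest intervals belong to Sik1, Rsph1 and Ndufv3.

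Ubash3a, which restrains signalling from the T cell receptor, had log2 signals of 6.24, 6.25, 6.28, 6.20 and 6.25 in Ts65Dn mice 1 to 5 and of 6.17, 6.21, 6.10, 6.17 and 6.13 in control mice 1 to 5. The lowest Ts65Dn mouse lay just under the highest control, and the signal was in the lower part of the array's range, where ratios are compressed. The difference was 0.09 ± 0.03 (log2, SE; 1.06-fold, 95% interval 1.01 to 1.12; unadjusted p = 0.0233 by limma, adjusted p = 1.00). It stayed at an unadjusted p under 0.05 in 8 of 10 refits that left out 1 mouse each. Without control mouse 3 it was 0.07 (unadjusted p = 0.0625), and without control mouse 5 it was 0.08 (unadjusted p = 0.0502, both by limma). Without the 3 arrays of high choroid plexus signal the genotypes did not overlap and the difference was 0.09 (unadjusted p = 0.0684 by limma). The annotated span of Ubash3a (chromosome 17, 31207868 to 31259681, GRCm38) overlaps that of Rsph1 (31255019 to 31277296), and probe positions were not used here.

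Rbm11, an RNA-binding protein that acts on alternative splicing (chromosome 16, 75592844 to 75602825), had log2 signals of 7.92, 7.57, 7.85, 7.64 and 7.86 in Ts65Dn mice and of 7.62, 7.43, 7.85, 7.54 and 7.53 in controls. Ts65Dn mice 1, 3 and 5 were high, together with control mouse 3, and Ts65Dn mice 2 and 4 lay near the other controls. The difference was 0.17 ± 0.09 (log2, SE; 1.13-fold, 95% interval 0.988 to 1.29; unadjusted p = 0.0704 and adjusted p = 1.00 by limma). In 3 of 10 refits that left out 1 mouse each, the unadjusted p was under 0.05. Over these refits the difference ranged from 0.13 without control mouse 2 (unadjusted p = 0.166 by limma) to 0.24 without control mouse 3 (unadjusted p = 0.0110 by limma). The 2 low Ts65Dn mice were those with a high choroid plexus signal, and with these and control mouse 5 left out the difference was 0.27 (unadjusted p = 0.0174, adjusted p = 0.999 by limma). The genotypes then did not overlap, but only just, since the lowest Ts65Dn mouse left and the highest control, both mouse 3, each had 7.85.

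Ncam2, a neural cell adhesion molecule known from olfactory axons (chromosome 16, 81200697 to 81624290), was the member nearest to the trisomic segment, with its end 3.09 Mb before it. Its log2 signals were 10.58, 10.47, 10.60, 10.54 and 10.71 in Ts65Dn mice and 10.41, 10.38, 10.50, 10.55 and 10.56 in controls. Ts65Dn mice 2 and 4 lay inside the control range, and the other Ts65Dn mice above every control. The difference was 0.10 ± 0.05 (log2, SE; 1.07-fold, 95% interval 0.991 to 1.16; unadjusted p = 0.0755 and adjusted p = 1.00 by limma). Without the 3 arrays of high choroid plexus signal it was 0.17 (unadjusted p = 0.0173, adjusted p = 0.999 by limma). Of 11 partner genes of neural cell adhesion, such as Ncam1 and L1cam, 0 passed in either direction.

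Sik1, a salt-inducible kinase that holds back the CREB coactivators and is itself induced by cyclic AMP (chromosome 17, 31844248 to 31855804), had the lowest fold. Its log2 signals were 8.38, 8.58, 8.35, 8.24 and 8.27 in Ts65Dn mice and 8.74, 9.07, 8.49, 8.45 and 8.31 in controls. The controls spread more widely (SD 0.30) than the Ts65Dn mice (SD 0.13), with control mouse 2 above all others and control mouse 5 inside the Ts65Dn range. The difference was -0.25 ± 0.13 (log2, SE; 0.843-fold, 95% interval 0.696 to 1.02; unadjusted p = 0.0776 and adjusted p = 1.00 by limma). Without control mouse 2 it was -0.13, and without the 3 arrays of high choroid plexus signal it was -0.35 (unadjusted p = 0.0315, adjusted p = 0.999 by limma). Of 9 measured partners of the kinase, among them Sik2, Sik3 and the coactivators Crtc1 to Crtc3, 0 passed in either direction.

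Umodl1, a secreted protein of the uromodulin kind, had log2 signals of 6.47, 6.23, 6.62, 6.42 and 6.39 in Ts65Dn mice and of 6.45, 6.28, 6.23, 6.44 and 6.23 in controls. Ts65Dn mouse 3 stood above the others, and the remaining values of both genotypes were mixed. The difference was 0.10 ± 0.07 (log2, SE; 1.07-fold, 95% interval 0.961 to 1.20). It was 0.05 without Ts65Dn mouse 3 and 0.15 without Ts65Dn mouse 2.

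**Figure D2:**
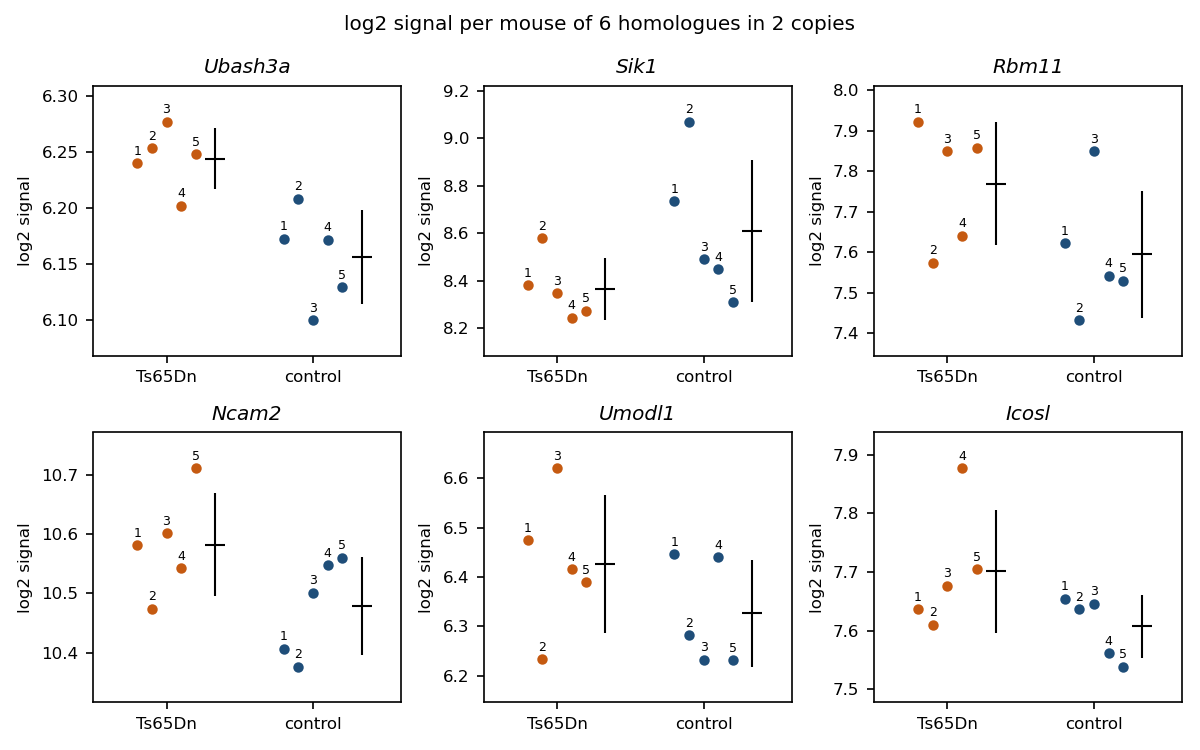
Log2 signal (vertical, a scale of its own in each panel) of 6 homologues in 2 copies in each mouse, numbered by replicate, with Ts65Dn mice left and controls right and the mean ± SD of 5 mice as a bar. The genotypes overlap in every panel, least for Ubash3a, where 1 Ts65Dn mouse lies below 1 control.

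The immune cell proteins, a small group, were the only group of function in which every measured gene had a positive difference, 4 of 4. Over all rows, 11132 of 23410 differences were positive. The median of the 4 was 0.08 on the log2 scale, and 0 passed the threshold. Icosl, the ligand of the T cell costimulator ICOS, had log2 signals of 7.64, 7.61, 7.68, 7.88 and 7.71 in Ts65Dn mice and of 7.65, 7.64, 7.65, 7.56 and 7.54 in controls. Ts65Dn mouse 4 was the highest and most of the other mice overlapped. The difference was 0.09 ± 0.05 (log2, SE; 1.07-fold, 95% interval 0.986 to 1.16). Itgb2, the common beta chain of the leukocyte integrins, had log2 signals of 6.97, 7.06, 7.02, 7.20 and 7.01 in Ts65Dn mice and of 7.09, 6.96, 6.91, 6.98 and 6.98 in controls, with a difference of 0.07 ± 0.05. Its highest value was again that of Ts65Dn mouse 4. Samsn1, an adaptor of lymphocytes, had a difference of 0.07 ± 0.05 (log2, SE).

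Ts65Dn mouse 4 also had the highest mean over the 15 measured markers of microglia and leukocytes, 8.25 on the log2 scale, against 7.98 to 8.08 in the other Ts65Dn mice and 7.94 to 8.10 in controls. Of these 15 markers 0 passed the test between genotypes and 10 had signals above the median row. Their part in the immune gene values was not tested. Ts65Dn mouse 4 is 1 of the 3 arrays with a high choroid plexus signal. Without these 3 arrays the difference was 0.05 for Icosl, 0.01 for Itgb2, 0.02 for Samsn1 and 0.09 for Ubash3a.

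Rsph1, a component of the radial spokes of motile cilia, had the widest spread between mice of the 53 genes. Its log2 signals were 7.13, 7.70, 6.90, 7.38 and 7.50 in Ts65Dn mice (SD 0.31) and 7.10, 7.29, 7.24, 7.19 and 7.56 in controls (SD 0.18). The mean of the choroid plexus markers over the same mice was 6.77, 9.12, 6.64, 8.53 and 7.51 in Ts65Dn mice and 7.17, 7.90, 6.72, 6.71 and 8.77 in controls. Within each genotype the mouse with the highest marker mean, Ts65Dn 2 and control 5, also had the highest Rsph1. The difference of Rsph1 was 0.04 ± 0.14 over all mice and -0.03 ± 0.12 (log2, SE) without the 3 arrays of high choroid plexus signal, and no direction is given to it. The markers of ependyma, another ciliated tissue, had means between 6.60 and 6.85 in Ts65Dn mice and between 6.63 and 6.79 in controls. Ts65Dn mouse 2 was the highest for these markers too, while control mouse 5 was the lowest of the controls.

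**Figure D3:**
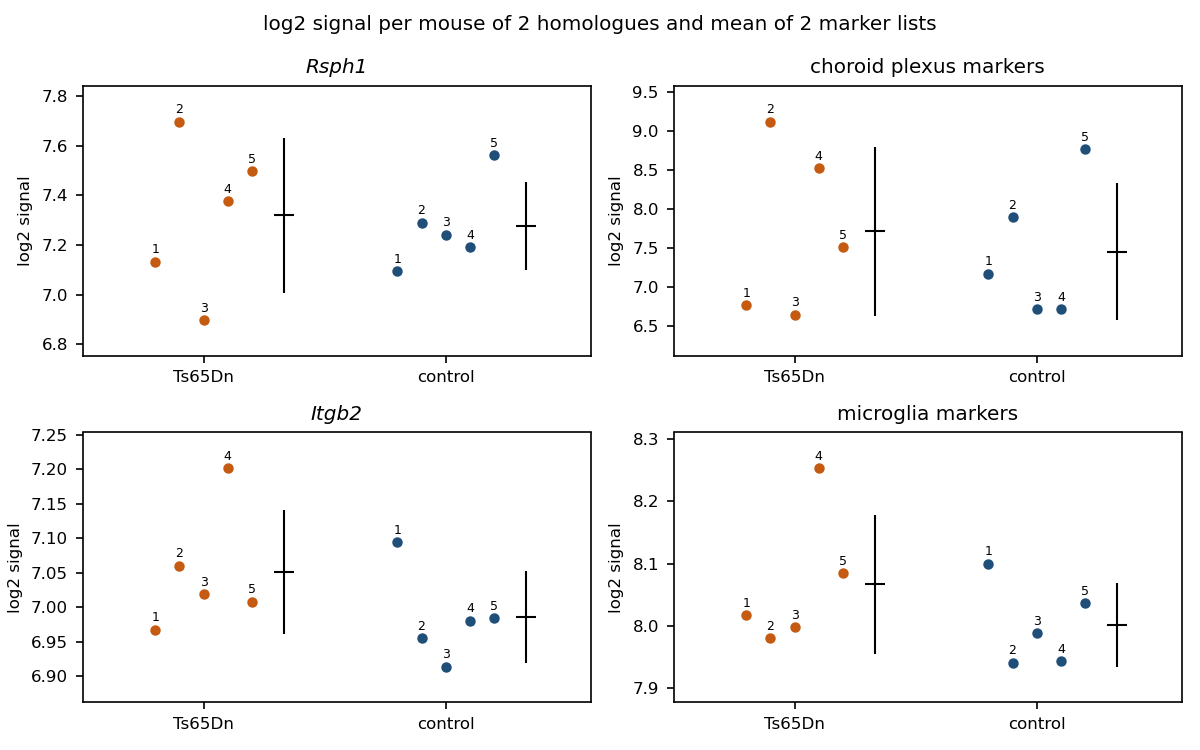
Log2 signal per mouse of Rsph1 and of Itgb2 (left panels) beside the mean log2 signal of the choroid plexus and of the microglia and leukocyte markers (right panels), with mice numbered by replicate, Ts65Dn left, control right, and bars for the mean ± SD of 5 mice. Ts65Dn mouse 2 and control mouse 5 are highest for Rsph1 and for the choroid plexus markers, and Ts65Dn mouse 4 for Itgb2 and the microglia markers.

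The RNA processing and ribosome assembly genes, 10 in number, had a median log2 fold change of -0.02, with 3 above 0 and 0 past the threshold. Mcm3ap, a scaffold of messenger RNA export, had log2 signals of 8.02, 8.04, 8.12, 8.19 and 8.34 in Ts65Dn mice and of 7.89, 8.16, 8.12, 8.40 and 8.43 in controls, which overlapped over most of their range (difference -0.06 ± 0.10, SE). Adarb1, the adenosine deaminase that edits glutamate receptor RNA, lay between 9.88 and 10.05 in Ts65Dn mice and between 9.95 and 10.18 in controls (0.952-fold, 95% interval 0.875 to 1.04). Rrp1 and its relative Rrp1b, both of ribosomal RNA processing, had folds of 0.997 and 0.993. They lie on different chromosomes, 10 and 17, and neither differed beyond the spread between mice.

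Among the protein modification, folding and turnover genes 5 of 7 had a positive difference, with a median of 0.03 and 0 past the threshold. Sumo3, a small ubiquitin-like modifier, lay between 9.91 and 10.02 on the log2 scale in Ts65Dn mice and between 9.93 and 10.13 in controls (0.959-fold, 95% interval 0.895 to 1.03). Ube2g2, a ubiquitin-conjugating enzyme of protein removal from the endoplasmic reticulum, had a fold of 1.02 (95% interval 0.930 to 1.12). Of the 13 measured genes of the SUMO pathway and the 18 of endoplasmic reticulum degradation, 0 passed.

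The metabolism and membrane transport genes had a median of 0.01, with 6 of 9 above 0. Lss, which makes lanosterol, had log2 signals of 8.38, 8.12, 8.42, 8.0 and 8.46 in Ts65Dn mice and of 8.39, 8.04, 8.28, 8.39 and 8.32 in controls. Ts65Dn mice 2 and 4 and control mouse 2 were low, and the difference was -0.01 ± 0.10 (log2, SE), or 0.14 ± 0.09 without the 3 arrays of high choroid plexus signal. Ndufv3, a subunit of respiratory complex I, had log2 signals of 9.03, 8.98, 8.79, 8.89 and 8.50 in Ts65Dn mice and of 9.01, 8.83, 8.84, 8.65 and 8.49 in controls. In both genotypes mouse 1 was the highest and mouse 5 the lowest, and the difference was 0.07 ± 0.11 (log2, SE). It was 0.0038 without control mouse 5, 0.16 without Ts65Dn mouse 5 and -0.06 without the 3 arrays of high choroid plexus signal. Agpat3, an acyltransferase of phospholipid synthesis, had a fold of 1.03 (95% interval 0.976 to 1.08), and the glycolytic enzyme Pfkl had a fold of 0.986 (0.912 to 1.07).

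The matrix, adhesion and secreted proteins had a median of -0.01, with 3 of 8 above 0. The 8 include Cryaa, a crystallin that is none of these, with a fold of 0.990. Col6a1 and Col6a2, 2 chains of collagen VI that lie close together on chromosome 10, had folds of 1.01 and 0.996. Col6a1 lay between 6.76 and 7.04 in Ts65Dn mice and between 6.86 and 6.90 in controls, so that the control range fell inside the other. Of 16 other genes of collagens and the basement membrane 0 passed.

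The signalling and ion channel genes had a median of -0.06, with 1 of 4 above 0, which was S100b. This calcium-binding protein of astrocytes had log2 signals of 9.54, 9.56, 9.45, 9.74 and 9.31 in Ts65Dn mice and of 9.44, 9.47, 9.54, 9.50 and 9.54 in controls. The control range lay inside that of the Ts65Dn mice, and the fold was 1.02 (95% interval 0.918 to 1.13). Over 11 astrocyte markers the mean lay between 10.19 and 10.28 in Ts65Dn mice and between 10.19 and 10.29 in controls, with 0 past the threshold.

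The centrosome, cilia and trafficking genes had a median of 0.02, with 3 of 5 above 0. Trappc10, a subunit of a vesicle tethering complex, had a fold of 1.01 (95% interval 0.951 to 1.08), and Pttg1ip, a binding partner of securin, one of 1.02 (0.940 to 1.10). The transcription, chromatin and meiosis genes had a median of -0.01 over 6 measured of 7, with 2 above 0. Nrip1, a corepressor of nuclear receptors, had a fold of 0.983 (0.895 to 1.08), and Prmt2, an arginine methyltransferase, one of 0.995 (0.870 to 1.14).

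Btg3, an antiproliferative protein of the BTG and TOB family, was the member of that group without a row of its own. Its 2 rows carry the symbols of both Btg3 and Gm7334, which the annotation gives as a transcribed pseudogene on chromosome 17, so their signal cannot be given to either. The folds of these rows were 1.02 (95% interval 0.937 to 1.11) and 1.01 (0.935 to 1.09). The 7 genes listed with it were Btg1, Btg2, Btg4, Tob1, Tob2, Cnot7 and Cnot8. Cnot7 and Cnot8 are partners of the family, not members of it. Among these 7 genes, 4 had a negative difference at an unadjusted p under 0.05, as 334 of all 23410 rows did, and 0 passed. The log2 fold changes of the 4 were -0.19 for Btg1, -0.37 for Btg2, -0.18 for Tob1 and -0.21 for Tob2. The smallest adjusted p of the 4 was 0.182, for Btg1.

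By chromosome, the median log2 fold change was -0.00 for the 29 genes on chromosome 10, -0.00 for the 16 on chromosome 17 and 0.06 for the 8 on proximal chromosome 16. On proximal chromosome 16, 6 of 8 differences were positive, where 11132 of all 23410 rows were. The median there was 0.03 without Ts65Dn mouse 4 and, with 7 of 8 positive, 0.03 without the 3 arrays of high choroid plexus signal. These 8 genes lie 3.09 Mb (Ncam2) to 9.13 Mb (Lipi) before the segment in 3 copies, and Ncam2 and Rbm11, which lies 9.12 Mb away, had the largest differences there. Chodl, a lectin-like membrane protein 5.77 Mb away, had a difference of -0.03. On chromosome 17 the 16 genes lie 21.97 to 23.05 Mb beyond the end of the segment in 3 copies.

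**Figure D4:**
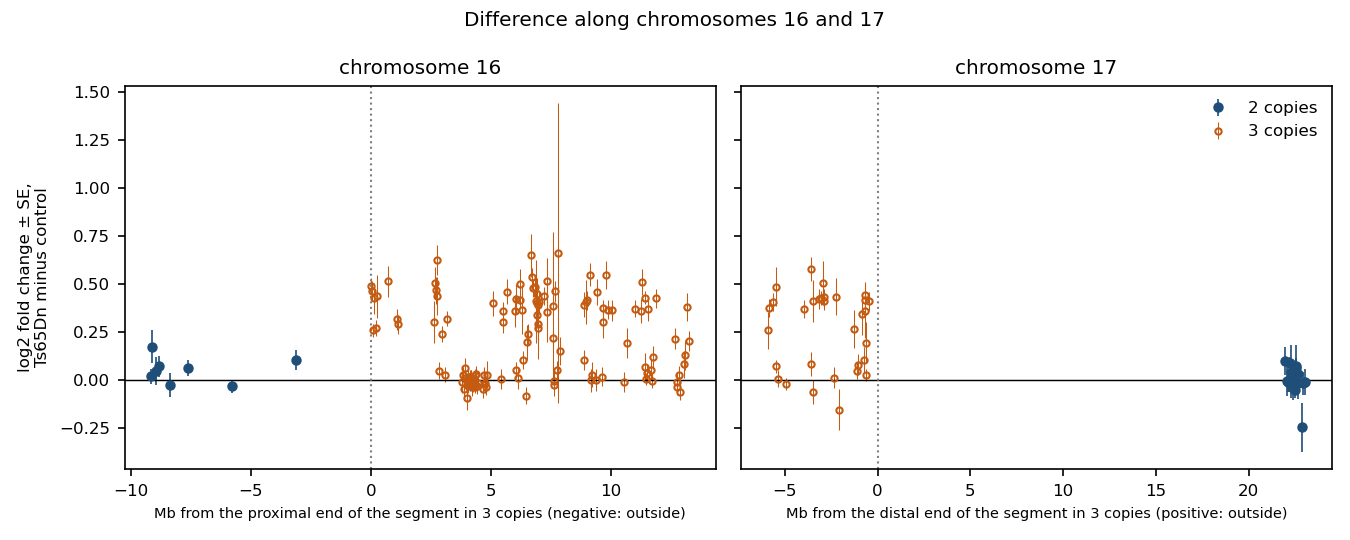
Log2 fold change, Ts65Dn minus control, with its SE (vertical) against distance in Mb from the end of the segment in 3 copies (dotted line) on chromosomes 16 and 17, for homologues in 2 copies (filled) and genes in 3 copies (open). The genes in 2 copies on chromosome 16, 3.09 to 9.13 Mb outside, lie between -0.03 and 0.17, with Rbm11 and Ncam2 the highest. Sik1 is the low point on chromosome 17.

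Genes in 3 copies measured on the same arrays give the scale of a change in gene dose. Of 127 such genes on chromosome 16, 42 were higher in Ts65Dn hippocampi and 0 lower, and on chromosome 17, 11 of 31 were higher and 0 lower, against 0 of 53 homologues in 2 copies. Dim rows compress ratios, so the comparison was also made at or above the median signal of all rows. There the median log2 fold change was 0.01 over 33 homologues in 2 copies and 0.41 over 76 genes in 3 copies. Of those 76, 72 lay above the highest of the 33 homologues, and 0 of the 33 lay above the lower quartile of the 76. Below the median signal, the medians were -0.01 over 20 homologues and 0.01 over 82 genes in 3 copies, of which 2 passed. Values in that dim part therefore say little about a change in gene dose. Without the 3 arrays of high choroid plexus signal, 11 of the genes in 3 copies passed, with 3 Ts65Dn and 4 control mice left, and 0 homologues in 2 copies did. The markers Clic6 and Kcne2 of the choroid plexus list are themselves in 3 copies.

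**Figure D5:**
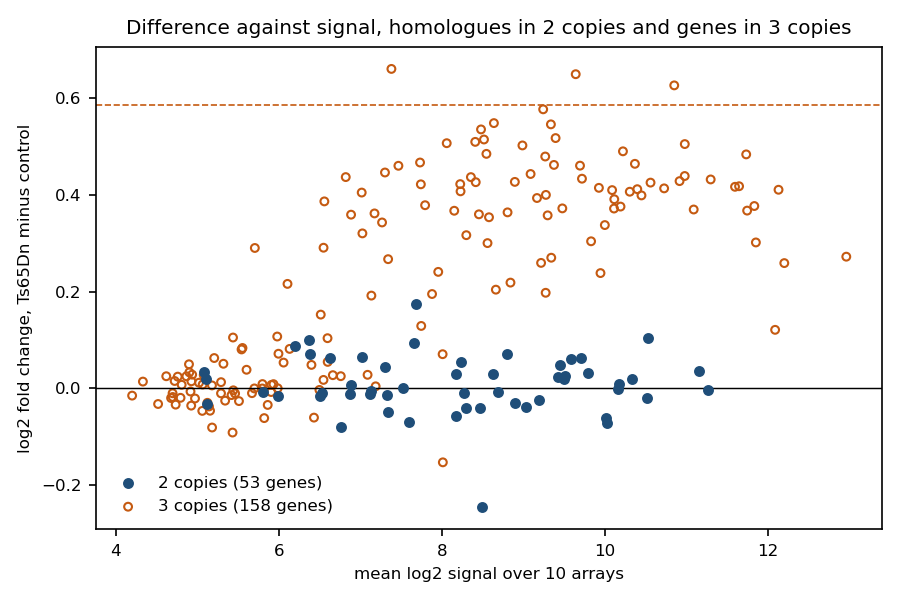
Log2 fold change, Ts65Dn minus control (vertical), against mean log2 signal over 10 arrays (horizontal) for the 53 homologues in 2 copies (filled) and 158 genes in 3 copies (open), with a dashed line at the ratio of 3 to 2 copies. Above a signal of about the median row, the filled points stay near 0 and most open points lie well above them.

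Genes that work with these homologues were followed in lists of partners, in total 305 genes, of which 279 were measured. Of these 0 passed in either direction, and an unadjusted p under 0.05 was found for 16, with 9 of them higher and 7 lower, 5.73% in all, against 3.16% of all rows. The 9 included 5 of the 17 measured genes of sterol synthesis and export, a list in which 14 differences were positive. Among these 5 were the sterol enzymes Sc5d (log2 fold change 0.12) and Msmo1 (0.18), which act after Lss. Phosphofructokinase Pfkp (0.15), a relative of Pfkl, was another of the 9. The 7 included, beside the 4 genes of the BTG and TOB family, the neuronal nitric oxide synthase Nos1 (-0.30, adjusted p = 0.225) and the guanylate cyclase subunit Gucy1a1 (-0.18). These last make and sense nitric oxide, which raises the cyclic GMP that Pde9a breaks down. Pde9a itself had a difference of -0.04 ± 0.06 (log2, SE; unadjusted p = 0.516 by limma). The difference of Pde9a was -0.10 without Ts65Dn mouse 2, which had its highest signal (unadjusted p = 0.0463 by limma), and -0.12 without the 3 arrays of high choroid plexus signal (unadjusted p = 0.0525 by limma). No other refit that left out 1 mouse put Pde9a at an unadjusted p under 0.05. A link of Pde9a to Nos1 or Gucy1a1 was not tested. Adarb1 partners in RNA editing, 13 measured, gave 0 at an unadjusted p under 0.05.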

How the data were processed

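Hippocampal RNA of 5 Ts65Dn and 5 control mice was measured on Affymetrix Mouse Gene 1.0 ST arrays. As deposited, the values were log2 signals from RMA, run by the authors. RMA subtracts background, gives all arrays the same distribution and combines probes into 1 value per transcript cluster, and it understates ratios of dim genes. RMA, limma and mm10 stand in the submitters' processing notes, without versions. The value table held 35556 rows, of which the platform annotation gave 1 symbol to 21789, several to 1621 and none to 12146, and the 23410 rows with a symbol were tested. All 53 measured genes were matched to RefSeq (GRCm38.p6) by gene number. Probe positions were not used.

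The genotype comparison used limma 3.58.1 (R 4.3.3) with lmFit and eBayes, no other term and two-sided p-values, which were adjusted over all 23410 rows by Benjamini-Hochberg. The 95% intervals are those of the same fit, and the fit was tested on simulated data. The fold change rank method of the study was written anew, with 25 pairs of arrays, trimmed mean ranks and an error level of 0.025 on each side, so it may differ from the original program. For arrays the number of mice, 5 per genotype, limits the precision. The p-values measure the spread between these mice, which the labels call biological replicates. No arrays held identical values.

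The genes and all lists were chosen with earlier results of these data known. Genes are named in full if at an unadjusted p under 0.05, among the 5 largest differences or SDs, among the brightest 2 of a group of function, nearest to the segment, paralogues of each other or named by the study. Partner genes are named if at an unadjusted p under 0.05 or to say what a list holds. Genes in counts of 5 or fewer, with Samsn1, Chodl, Lipi, Cryaa and Pde9a, were named after their values were seen. Alternatives were other rows, filters, normalizations, variance models and thresholds, a replicate block and leaving out each mouse. Plots were drawn with matplotlib 3.10.9.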

Additional observations from a re-analysis of the deposited data

Results flagged for a closer look

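A mouse far from the other 4 of its genotype was found in 5 of 106 groups tested (53 genes in each genotype), and chance flags about 1 in 20. Hsf2bp was 5.76 on the log2 scale in Ts65Dn mouse 4, against 6.00 to 6.06 in the other Ts65Dn mice. Slc19a1 was 8.77 in control mouse 5, against 8.57 to 8.59 in the other controls. Agpat3 was 11.16 in control mouse 5, against 11.12 to 11.13 in the other controls. Pttg1ip was 9.26 in control mouse 4, against 9.42 to 9.48, and U2af1 was 8.02 in control mouse 1, against 8.18 to 8.24.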

How the results depend on the processing

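The count of 0 homologues past an adjusted p of 0.05 held under every alternative of the limma fit, and the rank method called 2 homologues, 87 genes in 3 copies and 27 partner genes. A threshold of 0.01 left 33 genes in 3 copies. With 5 mice per genotype, small differences cannot be given a direction, and of 275 values of genes given per mouse or by fold under alternatives other than leaving out 1 mouse, 18 changed sign and 0 crossed the threshold. Array weights gave log2 fold changes of 0.013 for Lss, -0.0045 for Ube2g2, 0.019 for Col6a2 and -0.013 for Col6a1. Centring the arrays gave 0.00070 for Rrp1, and cyclic loess gave 0.0022 for Col6a2. The replicate numbers stand for no stated litter or day. Deviations of same-numbered Ts65Dn and control mice correlated at 0.51, 0.27, 0.32, 0.03 and 0.46, and each Ts65Dn mouse correlated best with its own number except mouse 4, which was closest to control mouse 2. Pairing was used only where every correlation was over 0.1, so the block stayed an alternative. A replicate block put 4 homologues at an unadjusted p under 0.05 (0.014 for Rbm11, 0.030 for Ncam2, 0.049 for Ubash3a and 0.0064 for Sik1, by limma) and changed no adjusted call among the homologues. Without the 3 arrays of high choroid plexus signal, chosen after seeing the data and leaving fewer mice, 3 homologues were at an unadjusted p under 0.05, 5 did not overlap between genotypes and 11 genes in 3 copies passed. The log2 fold changes were then -0.029 for Rsph1, -0.060 for Ndufv3, 0.019 for Mcm3ap, 0.14 for Lss, 0.016 for Rrp1, -0.015 for Ube2g2, 0.0023 for Nrip1, 0.064 for Col6a2, -0.052 for S100b, -0.0067 for Pttg1ip, 0.032 for Rrp1b and -0.032 for Col6a1. Leaving out 1 mouse each gave 1 to 6 homologues at an unadjusted p under 0.05, the 6 without Ts65Dn mouse 2 (Rbm11, Ncam2, Umodl1, Ubash3a, Pde9a and Sik1), 0 to 1 without overlap and 38 to 48 genes in 3 copies past the threshold. The median over all homologues then lay between -0.01 and 0.01, and that on proximal chromosome 16 between 0.027 and 0.079 (0.036 with array weights). The log2 fold changes ranged from -0.050 to 0.15 for Rsph1, -0.13 to 0.0015 for Mcm3ap, -0.072 to 0.059 for Lss, -0.043 to 0.019 for Rrp1, -0.0048 to 0.061 for Ube2g2, -0.061 to 0.0074 for Nrip1, -0.074 to 0.035 for Prmt2, -0.049 to 0.014 for Pfkl, -0.029 to 0.036 for Col6a2, -0.031 to 0.078 for S100b, -0.014 to 0.050 for Pttg1ip, -0.048 to 0.040 for Rrp1b and -0.030 to 0.041 for Col6a1. Of genes that kept their sign, they ranged from 0.13 to 0.24 for Rbm11, 0.071 to 0.13 for Ncam2, -0.32 to -0.13 for Sik1, 0.050 to 0.12 for Icosl, 0.028 to 0.093 for Itgb2 and 0.0033 to 0.044 for Trappc10. The cause of these shifts was not tested.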
